A study of Homo sapiens with 6 samples.

Results

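The glucose response specific to the TET2WT line was the difference between high and normal glucose in A2058 cells overexpressing wild-type TET2, set against the mean of the same difference in the Mock and TET2M lines. A2058 is an established human melanoma cell line. The comparison used all 6 arrays of the series and all probe sets, controls aside, that name 1 gene. These were 41091 of 54675 probe sets, for 19775 genes. Of these genes, 14428 had a probe set above the low-value level and were tested. Every gene therefore had 3 glucose differences, 1 for each line, and the value examined was how far that of TET2WT lay from those of the other 2 lines.

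Cells of each line were grown for 7 days in DMEM, a standard culture medium, with 4.5 g/L glucose (high) or 1 g/L glucose (normal), and total RNA of each of the 6 combinations was hybridised to 1 Affymetrix array. The TET2WT and TET2M lines overexpress constructs of those names, and the Mock line serves as the comparison without them. All 3 lines derive from A2058. The labels also call TET2M "Mut" and do not say which change it carries, nor which promoter drives either construct or whether a line is a single clone. With 1 array for each combination there were no replicates, so differences within a line are given without a test.

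TET2 is a dioxygenase that oxidises 5-methylcytosine in DNA, mostly where a C is followed by a G, using 2-oxoglutarate, iron and oxygen. AMPK, the kinase that senses low cellular energy, is known to phosphorylate TET2, and glucose supply bears on AMPK activity. Cells read glucose by several other routes as well: the transcription factor MondoA induces TXNIP and ARRDC4 when glucose phosphates accumulate, and ATF4 induces genes of amino acid and serine synthesis under nutrient stress.

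The starts of 3 genes with a large TET2WT-specific difference are shown because they span the range of CG content in the windows examined, CG being the dinucleotide on which TET enzymes act. The windows run from 250 bases before to 50 bases after the RefSeq start, in GRCh38.p14, 5′ to 3′ along the gene, with each CG in capitals. The FLG window lies at chr1:152325190-152325489 on the minus strand and holds 1 CG. The DKK1 window lies at chr10:52314031-52314330 on the plus strand and holds 20. The LOXL4 window lies at chr10:98268145-98268444 on the minus strand and holds 45. No methylation was measured here, so the sequences say nothing of the state of these sites.
FLG: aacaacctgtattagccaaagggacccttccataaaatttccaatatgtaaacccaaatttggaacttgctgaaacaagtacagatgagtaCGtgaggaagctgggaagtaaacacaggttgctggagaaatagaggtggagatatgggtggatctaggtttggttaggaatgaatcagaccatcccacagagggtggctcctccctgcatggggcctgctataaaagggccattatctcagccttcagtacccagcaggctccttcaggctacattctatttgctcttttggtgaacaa
DKK1: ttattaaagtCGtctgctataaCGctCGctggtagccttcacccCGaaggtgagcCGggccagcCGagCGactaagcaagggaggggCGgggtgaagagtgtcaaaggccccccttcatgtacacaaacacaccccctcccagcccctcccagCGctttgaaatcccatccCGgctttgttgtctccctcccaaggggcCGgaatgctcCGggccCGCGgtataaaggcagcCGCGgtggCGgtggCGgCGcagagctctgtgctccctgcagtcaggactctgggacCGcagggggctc
LOXL4: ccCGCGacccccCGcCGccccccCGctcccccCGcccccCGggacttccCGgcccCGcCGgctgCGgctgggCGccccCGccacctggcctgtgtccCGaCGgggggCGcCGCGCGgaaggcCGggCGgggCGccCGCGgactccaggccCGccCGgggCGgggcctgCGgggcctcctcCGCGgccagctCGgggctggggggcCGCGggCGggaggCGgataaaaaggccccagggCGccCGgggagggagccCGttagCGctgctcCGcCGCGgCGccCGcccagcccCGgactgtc

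The values are the authors' log2 probe set values, and a glucose difference below is the log2 value at high glucose minus that at normal glucose. The 6 arrays had medians from 2.96 to 3.03. The difference between 3′ and 5′ control probe sets of ACTB, a sign of RNA quality, ran from 1.65 to 2.06, with the TET2WT arrays at 2.06 (high) and 1.90 (normal), the Mock arrays at 2.02 and 1.94 and the TET2M arrays at 1.93 and 1.65. Its part in the results was not tested. Of 9 melanoma markers measured by single-gene probe sets, 7 had a mean above 2.64, the mean under which probe sets were left out. SOX10 (9.51), MITF (6.67) and S100B (7.46) were well above it, whereas the pigment genes MLANA (2.24) and TYR (2.51) lay below it. In pairs of values below, the high-glucose array comes first and the normal-glucose array second. The TET2 probe set read 9.54 and 9.68 (TET2WT), 7.57 and 7.37 (TET2M) and 3.81 and 4.13 (Mock). The TET2 glucose difference specific to TET2WT was -0.08 ± 0.29 (SE), and -0.30 on a second probe set, which read 6.64 and 6.87 (TET2WT), 4.57 and 3.89 (TET2M) and 2.10 and 2.64 (Mock). The remaining TET2 probe set was alike in all lines, from 5.15 to 5.41, and so did not follow the constructs; its gap was 0.095.

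The strength of the test was limited by the design. The spread of limma's model came from how far the glucose differences of Mock and TET2M lay apart, which left 1 residual degree of freedom, to which the prior added 1.721. Of 14428 genes, 0 passed an adjusted p of 0.05 (0% called), the smallest adjusted p being 0.531, and 1325 genes (9.18%) had an unadjusted p under 0.05, of which 730 (5.06%) lay higher in TET2WT and 595 (4.12%) lower. Turning the same model to the other lines, 0 genes passed for a Mock-specific response (smallest adjusted p 0.995; 489 genes, 3.39%, with an unadjusted p under 0.05, 1.52% higher and 1.86% lower) and 0 for a TET2M-specific response (0.996; 302 genes, 2.09%, 1.04% higher and 1.05% lower). The 3 comparisons share all 6 arrays and are not independent. No gene below can therefore be called on the test, and each is given by its 6 values. The SE beside a difference of differences is that of the model, and it cannot fall much below 0.098, the value the prior gives where Mock and TET2M responded alike.

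As a description without a test, genes were counted whose glucose difference in TET2WT lay at least 1.5-fold (0.585 on the log2 scale) above that of Mock and also above that of TET2M, or below both. There were 277 such genes (1.92%), 128 higher (0.887%) and 149 lower (1.03%). With Mock as the line that stands apart the count was 124 (0.859%; 62 higher and 62 lower, 0.430% each), and with TET2M it was 73 (0.506%; 40 and 33, or 0.277% and 0.229%). The spread of the difference of differences over all genes was 0.263 (SD) for TET2WT, 0.230 for Mock and 0.217 for TET2M. Its median for TET2WT was 0.02, and 53% of genes lay above 0. The number of genes with a glucose difference of at least 1.5-fold inside a line differed less between lines: 335 (2.32%) in TET2WT, 309 (2.14%) in Mock and 284 (1.97%) in TET2M. In TET2WT these were 131 higher and 204 lower at high glucose, against 170 and 139 in Mock and 155 and 129 in TET2M.

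**Figure D1:**
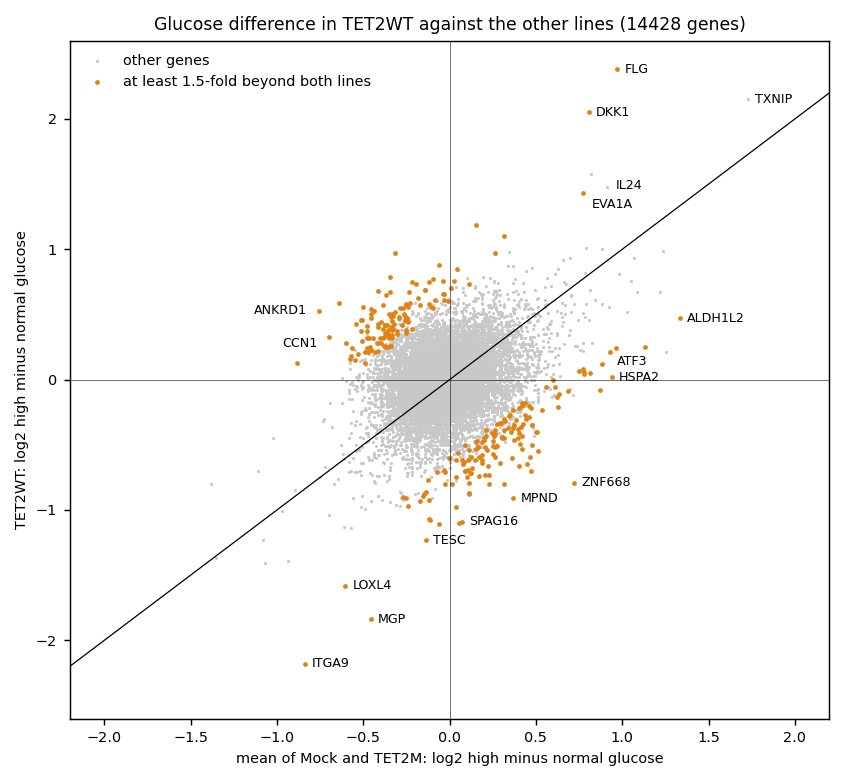
Glucose difference of each of 14428 genes in TET2WT (vertical axis) against the mean of Mock and TET2M (horizontal axis), both in log2 units, high minus normal glucose, from 1 array per combination. Orange points are the 277 genes at least 1.5-fold beyond both lines, the line marks equal differences, and FLG and DKK1 stand at the top right, above it, and ITGA9, MGP and LOXL4 at the bottom left, below it.

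The 277 genes were chosen by these values, so what follows describes them and supports nothing further. Most were not strong glucose responses of TET2WT alone. In 150 of them (83 higher, 67 lower) no line had a 1.5-fold glucose difference, and the gap came from differences of opposite sign on either side of 0. A glucose difference of 1.5-fold in TET2WT and in neither other line was found for 83 (27 higher, 56 lower). In 16 genes Mock and TET2M had a 1.5-fold difference the same way and TET2WT did not. In 23 genes 1 of the comparison lines reached 1.5-fold, in 4 genes all 3 lines did in the same direction, and in 1 gene, ZNF668, TET2WT went the other way. The glucose difference of TET2WT had the opposite sign to that of both other lines in 221 of the 277. Their median level was low, 3.92 against 5.66 for all genes tested, and 55 had a value below 2.64 on at least 1 array. The smaller of the 2 gaps was 0.59 for the genes just inside the 1.5-fold limit and 0.58 for those just outside, with 90 genes within 0.05 inside it and 117 within 0.05 outside.

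**Figure D2:**
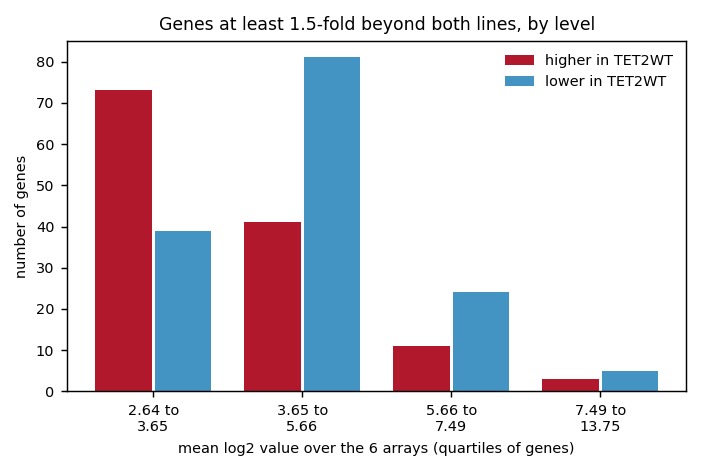
Number of genes at least 1.5-fold beyond both lines, higher (red) or lower (blue) in TET2WT, in 4 groups of genes ordered by mean log2 value over the 6 arrays. Counts were 73 higher and 39 lower in the group of lowest mean (2.64 to 3.65) and 3 and 5 in that of highest mean (7.49 to 13.75).

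Direction differed with level as well. Among the 3611 genes with the lowest means (2.64 to 3.65) 3.10% were at least 1.5-fold beyond both lines, 73 higher and 39 lower, and the median difference of differences was 0.11, with 65.7% of genes above 0. In the next group (3.65 to 5.66) the share was 3.39%, with 41 higher and 81 lower and a median of 0.005. Above a mean of 5.66 the shares were 0.970% and 0.222%, with medians of -0.025 and 0.01. Groups of genes measured near background, such as markers of other cell types, therefore have to be read against a positive median. At a mean of at least 6 there were 31 genes beyond both lines, 12 higher and 19 lower. They include, outside the rule for named genes and picked after their values were seen, FHL2, a LIM-domain cofactor, with glucose differences of 0.39 in TET2WT, -0.34 in Mock and -0.31 in TET2M, and TOB1, an antiproliferative regulator of mRNA decay, with -0.36, 0.50 and 0.33.

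The genes higher in TET2WT beyond both lines were headed by FLG, which encodes filaggrin, a structural protein of the outer epidermis. FLG read 8.08 and 5.70 (TET2WT), 7.20 and 6.30 (Mock) and 7.21 and 6.17 (TET2M). The glucose difference was positive in every line, 2.38 in TET2WT against 0.90 and 1.04, and TET2WT had both the highest array at high glucose and the lowest at normal glucose. The difference of differences was 1.41 ± 0.122 (SE), with an adjusted limma p of 0.531.

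DKK1, a secreted antagonist of Wnt signalling, had the same shape at a higher level. It read 8.94 and 6.89 (TET2WT), 8.85 and 8.24 (Mock) and 8.50 and 7.50 (TET2M). The 3 lines lay closer together at high glucose than at normal glucose, where TET2WT was lowest, and the gap was 1.245 ± 0.227 (SE). The 14 tested genes among Wnt pathway regulators and targets, DKK1 included, did not share a direction: 7 lay above 0 and 7 below, with a median of 0.0275. FZD7, a Wnt receptor, was at -0.605, and NKD1, a feedback inhibitor, at 0.725.

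CCN1, a matricellular protein of the immediate early class, behaved differently, in that TET2WT was the only line with a positive glucose difference among the 3. It read 7.44 and 7.11 (TET2WT), 7.19 and 7.95 (Mock) and 7.06 and 7.70 (TET2M). The difference of differences was 1.03 ± 0.116 (SE). A second CCN1 probe set gave 0.86. SLC35F1, a member of a solute carrier family, read 5.97 and 5.22 (TET2WT), 6.71 and 6.90 (Mock) and 6.82 and 7.06 (TET2M). Here TET2WT was below both lines at each concentration, and the gap between lines was narrower at high glucose. Its difference of differences was 0.965 ± 0.101 (SE).

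EVA1A, which acts in autophagy, was 1.5-fold higher at high glucose in all 3 lines. Its glucose difference was 1.43 in TET2WT, 0.71 in Mock and 0.83 in TET2M, with 5.33 in TET2WT at high glucose against 4.34 and 4.35. The other genes named on this side had mean levels from 3.22 to 5.14. SLC27A3, an acyl-CoA synthetase of the fatty acid transport family, read 4.36 and 3.68 (TET2WT), 3.61 and 4.02 (Mock) and 4.03 and 4.45 (TET2M), a gap of 1.095 ± 0.098 (SE). ZNF606 (1.23), a zinc finger protein, CD209 (1.135), a lectin of dendritic cells, RTEL1 (1.285), a helicase that acts at telomeres, SLC22A6 (1.015), an organic anion transporter, HVCN1 (0.97), a proton channel, and NUTM2B (0.88) complete the group. Further probe sets that passed the filter gave -0.13 for ZNF606, 0.05 and 0.155 for CD209, 0.085 for RTEL1 and 0.45 for SLC22A6. In all of them but RTEL1 the glucose difference of TET2WT lay between 0.28 and 0.79, and in RTEL1 it was 0.97.

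**Figure D3:**
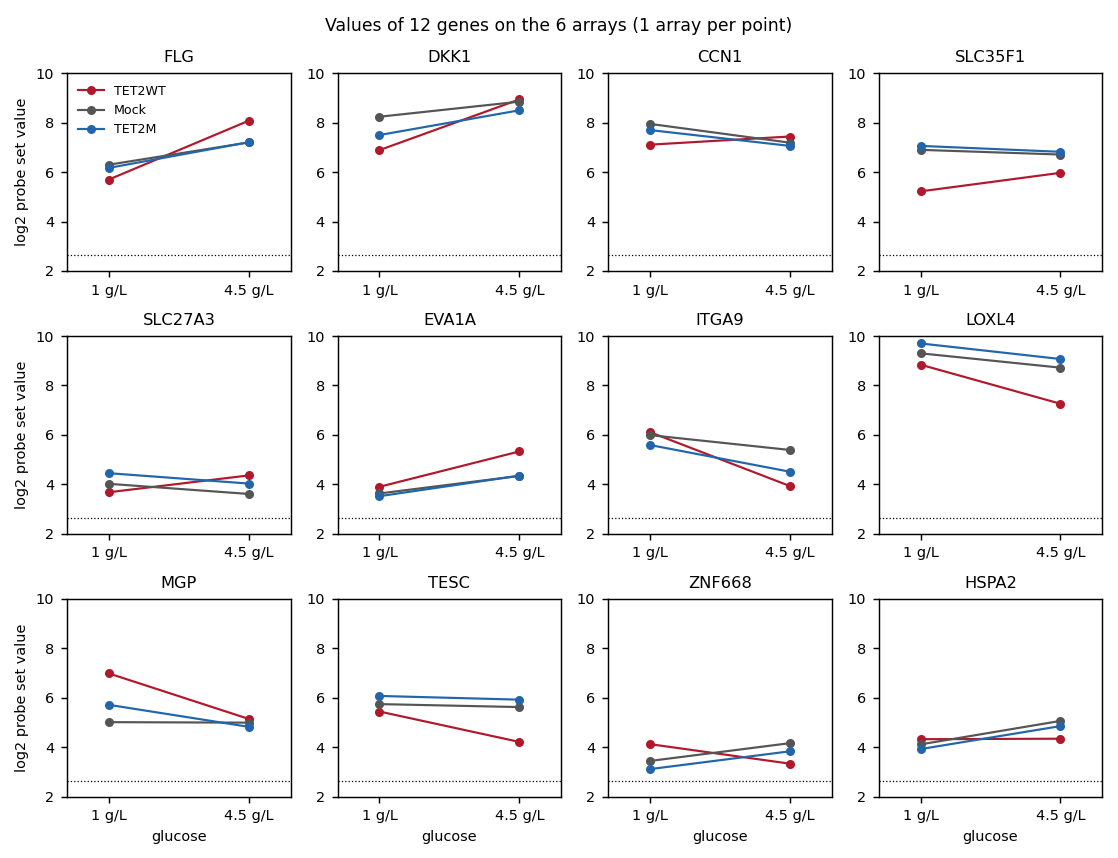
Log2 probe set values of 12 genes at 1 and 4.5 g/L glucose, 1 array per point, with lines joining the arrays of TET2WT (red), Mock (grey) and TET2M (blue) and a dotted line at the low-value level of 2.64. The TET2WT line climbs most steeply for FLG, DKK1 and EVA1A and drops most steeply for ITGA9, LOXL4, MGP and TESC.

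Of the genes named as lower in TET2WT, LOXL4 is a lysyl oxidase family enzyme that crosslinks collagen and elastin. It read 7.26 and 8.84 (TET2WT), 8.72 and 9.30 (Mock) and 9.07 and 9.70 (TET2M). All 3 lines were lower at high glucose, by differences of -1.58, -0.58 and -0.63, and the TET2WT array at high glucose was the lowest of the 6. The difference of differences was -0.975 ± 0.101 (SE).

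ITGA9, the integrin alpha 9 subunit, read 3.93 and 6.11 (TET2WT), 5.39 and 5.99 (Mock) and 4.51 and 5.59 (TET2M). Again every line was lower at high glucose, and the order followed TET2WT (-2.18), TET2M (-1.08) and Mock (-0.60). Its difference of differences was -1.34 ± 0.270 (SE), but 2 further ITGA9 probe sets that passed the filter gave 0.04 and 0.175, at levels from 2.70 to 3.57. MGP, the matrix Gla protein that inhibits calcification, read 5.14 and 6.98 (TET2WT), 4.99 and 5.01 (Mock) and 4.82 and 5.71 (TET2M). The high-glucose arrays of the 3 lines lay close together, and TET2WT stood out at normal glucose. Since Mock and TET2M differed from each other, the SE was wide (-1.385 ± 0.467).

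TESC, a calcium-binding regulator of sodium-proton exchange, read 4.21 and 5.44 (TET2WT), 5.62 and 5.74 (Mock) and 5.92 and 6.07 (TET2M). The glucose differences of Mock (-0.12) and TET2M (-0.15) were close to 0, and that of TET2WT was -1.23. A second, dimmer TESC probe set gave a gap of 0.09 instead of -1.095. ZNF668, a zinc finger protein, was the gene with the smallest unadjusted limma p (0.000995; adjusted p 0.531). Its values were 3.33 and 4.12 (TET2WT), 4.16 and 3.44 (Mock) and 3.83 and 3.11 (TET2M), so that TET2WT was lower and the other lines higher at high glucose, by 0.72 in each. Its second probe set gave 0.195 in place of -1.51. The remaining genes of this group were MPND (-1.28), SPAG16 (-1.16), a sperm axoneme protein, MTHFD2L (-1.17), an enzyme of mitochondrial folate metabolism, ZNF883 (-1.065) and the long noncoding RNA GSEC (-1.115).

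Other probe sets of the same genes bear on how far these values hold. Of the 20 genes named for the largest gaps, 13 had further probe sets, 16 of which passed the filter. The gap had the same sign in 8 of the 16, and in 2, those of CCN1 and GSEC, it was again at least 1.5-fold beyond both lines. RTEL1 (0.085 on its other probe set) and MTHFD2L (5 others, from -0.11 to 0.575) were among those where it was not. FLG and DKK1 had no further probe set. LOXL4 and MGP had 1 each, below the low-value level. None of the 20 genes had a value under 2.64 on any array.

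A further question was how TET2WT stood for genes that responded to glucose in both other lines. Of the 53 genes at least 1.5-fold higher at high glucose in Mock and in TET2M, 43 had a smaller difference in TET2WT than the mean of the other lines, and 34 were under 1.5-fold in TET2WT. The median was 0.48 in TET2WT and 0.79 in the others. The same count with Mock held out was 21 of 28 genes (medians 0.655 and 0.792), and with TET2M held out 19 of 28 (0.80 and 0.81). Genes picked for a large difference in some lines tend to show a smaller one in the line held out, so the 3 counts are to be read against each other. For genes lower at high glucose in both other lines, 9 of 17 were closer to 0 in TET2WT (medians -0.80 and -0.895), 25 of 29 in Mock (-0.54 and -0.86) and 14 of 19 in TET2M (-0.83 and -0.83). TET2WT thus stood farthest from the others among genes higher at high glucose, and Mock among genes lower at high glucose, a difference that was not tested.

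Among the genes higher in the other lines and not in TET2WT, HSPA2, an HSP70 chaperone, read 4.34 and 4.32 (TET2WT), 5.06 and 4.11 (Mock) and 4.85 and 3.92 (TET2M). The TET2WT arrays were nearly equal, and the gap was -0.92 ± 0.098 (SE). ALDH1L2, a mitochondrial enzyme of folate metabolism and a target of ATF4, read 3.91 and 3.44 (TET2WT), 5.07 and 3.65 (Mock) and 5.16 and 3.91 (TET2M). The lines were closer at normal than at high glucose, and the gap was -0.865 ± 0.132 (SE), with -0.36 on a second probe set. RAB30, a small GTPase of the Golgi, had a gap of -0.95 near background, with 1 array below 2.64.

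ALDH1L2 led a wider group. ATF4 is the transcription factor through which cells induce amino acid transporters, serine synthesis and tRNA charging when amino acids are short or the endoplasmic reticulum is stressed. Of 38 listed ATF4 and amino acid response genes 36 were tested, and 29 of them had a difference of differences below 0, against 46.1% of all genes tested. In 21 the glucose difference of TET2WT lay below that of each other line, against 32.6% of all genes. The median glucose difference was 0.26 in TET2WT, 0.425 in Mock and 0.48 in TET2M, and the median difference of differences was -0.145. The list's median was positive in all 3 lines and lowest in TET2WT. 0 of 36 members passed the adjusted test, 6 had an unadjusted p under 0.05, all lower, against 4.12% of all genes in that direction, and 2, ALDH1L2 and ATF3, were 1.5-fold below both lines.

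Within it, the gaps were not even. ATF3, a stress-induced transcription factor, read 4.53 and 4.32 (TET2WT), 5.08 and 4.16 (Mock) and 4.82 and 3.88 (TET2M) (gap -0.72 ± 0.098, SE). PSPH, which makes serine, read 6.69 and 6.02 (TET2WT), 7.33 and 5.97 (Mock) and 7.29 and 6.21 (TET2M) (-0.55 ± 0.177). CTH, which makes cysteine, had glucose differences of 0.28, 0.52 and 1.13, so that Mock was nearer to TET2WT than to TET2M. Among amino acid transporters, SLC7A5 was at 0.055, SLC3A2 at 0.045 and SLC7A1 at -0.025, whereas SLC7A11, the cystine importer, was at -0.31, with glucose differences of 0.07 in TET2WT against 0.30 and 0.46. ATF4 itself, measured at 10.79 to 11.29, had a gap of -0.085, and CEBPB one of -0.005. ASNS, asparagine synthetase, was at -0.305 and PCK2, mitochondrial phosphoenolpyruvate carboxykinase, at -0.525. These last 8 genes lie outside the rule for named members and were chosen after their values were seen.

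**Figure D4:**
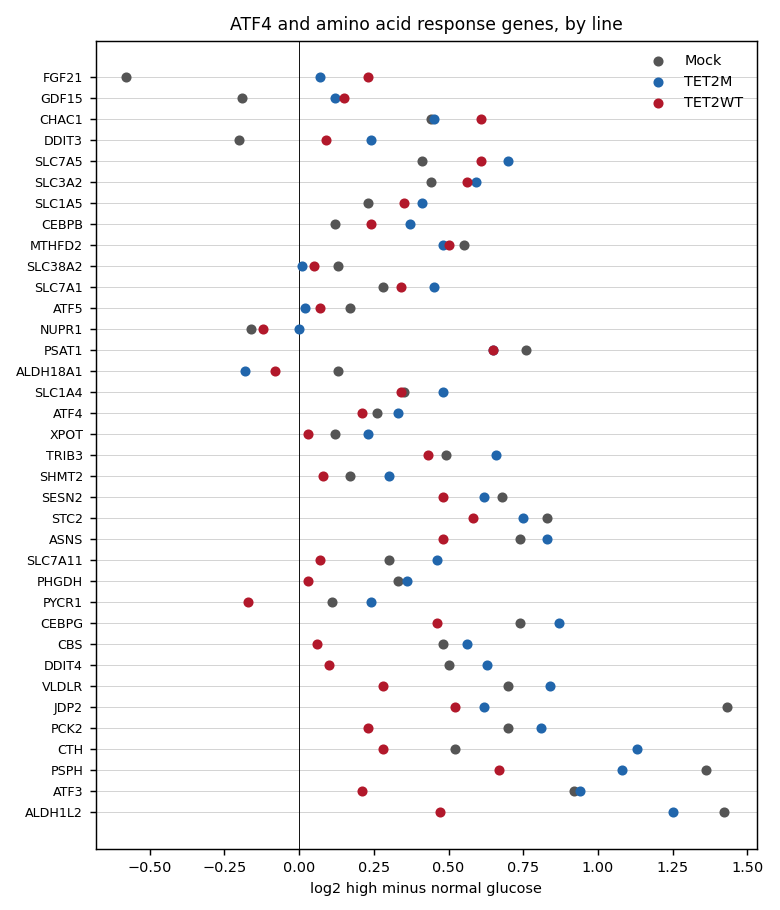
Glucose difference (log2, high minus normal) of 36 ATF4 and amino acid response genes in TET2WT (red), Mock (grey) and TET2M (blue), 1 difference of 2 arrays per point, ordered by the difference of differences with the lowest at the bottom. In 21 genes the red point lies left of both others, farthest in ALDH1L2 and ATF3.

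The start of ATF3 is shown since most of the list lay on 1 side and ATF4 is known to bind the letters TGATGNAA with its partners. The window lies at chr1:212565157-212565456 on the plus strand, with its 1 match in capitals. Such a match, on either strand, was present in 6 of 30 windows of the list (20%) and in 2.04% of the windows of all genes tested. The list holds known ATF4 and amino acid response genes, so a high share there is no independent result. Among genes lower in TET2WT beyond both lines a match was present in 4 of 120 windows (3.33%), and among those higher in 0 of 95. The ALDH1L2 window was not examined. A match is a description of the letters and no evidence of binding.
ATF3: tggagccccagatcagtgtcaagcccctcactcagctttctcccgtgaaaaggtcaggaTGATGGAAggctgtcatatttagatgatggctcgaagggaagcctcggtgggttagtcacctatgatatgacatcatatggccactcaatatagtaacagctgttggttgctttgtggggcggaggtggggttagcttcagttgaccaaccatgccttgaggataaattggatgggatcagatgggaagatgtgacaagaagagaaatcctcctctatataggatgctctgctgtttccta

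Genes of fat burning had the lowest list median. Fatty acid oxidation takes place in mitochondria after carnitine-dependent import, and PDK4, listed with it, favours fat over glucose by inhibiting pyruvate dehydrogenase. Of 14 tested members 13 had a difference of differences below 0, against 46.1% of all genes. In 12 TET2WT lay below each other line, against 32.6% of all genes, and the median was -0.195 beside 0.02. Median glucose differences were -0.155 in TET2WT, 0.035 in Mock and 0.005 in TET2M. PDK4 read 5.46 and 6.21 (TET2WT), 4.59 and 4.41 (Mock) and 4.73 and 4.71 (TET2M) (gap -0.85 ± 0.129, SE). Both TET2WT arrays were above all other arrays, the normal-glucose array most. CPT2, an inner-membrane carnitine enzyme, had glucose differences of -0.37, 0.10 and 0.02, and ETFDH, which passes electrons to the respiratory chain, -0.09, 0.32 and 0.24. CPT1A, which controls import, was lower at high glucose in each line (-0.52, -0.27 and -0.18). 0 members passed the adjusted test, and 3 had an unadjusted p under 0.05, all lower (4.12% of all genes in that direction).

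Medians of -0.10 or lower were also found for 3 further lists. Of 20 hypoxia-inducible genes 12 lay below 0, with a median of -0.1075, against 46.1% of all genes and a median of 0.02. ANGPTL4, a secreted lipase inhibitor, read 6.68 and 6.90 (TET2WT), 5.46 and 5.02 (Mock) and 5.95 and 5.58 (TET2M) (gap -0.625). PDK1, which like PDK4 inhibits pyruvate dehydrogenase, had glucose differences of -0.30, 0.31 and 0.17. DDIT4, an inhibitor of mTORC1 that the ATF4 list also holds, had 0.10, 0.50 and 0.63. ANKRD37 had a gap of -0.37. Of 26 genes of the unfolded protein response of the endoplasmic reticulum 18 lay below 0, with a median of -0.13. XBP1, a transcription factor whose mRNA is spliced by ERN1, had glucose differences of 0.02, 0.46 and 0.71, and ERN1 itself -0.03, 0.59 and 0.18. SEC24D had a gap of -0.485 and WFS1 of -0.36. Of 34 interferon response genes 19 lay below 0 (median -0.10), but against each comparison line alone the median was near 0 (-0.01 and -0.03). In 14 of them TET2WT lay below each other line, against 32.6% of all genes, and in 10 above each, against 38.9%. IFI44, an interferon-induced protein, read 4.88 and 5.75 (TET2WT), 6.08 and 5.88 (Mock) and 5.76 and 5.73 (TET2M) (gap -0.985 ± 0.132, SE). IRF9 (-0.72), a subunit of the interferon-activated complex ISGF3, SAMD9L (-0.625) and DDX60 (-0.59), whose TET2WT arrays were at 2.80 and 3.46, were the next. 0 members of these 3 lists passed the adjusted test. With an unadjusted p under 0.05 there were 4 of 20, 2 of 26 and 4 of 34 members, each of them lower, against 4.12% of all genes in that direction. The 2 of 26 is close to that share.

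Genes of cell cycle entry and DNA replication lay on the other side. Of 39 tested members 31 had a difference of differences above 0, against 53% of all genes, and in 27 TET2WT lay above each other line, against 38.9% of all genes. The median glucose difference was 0.27 in TET2WT, 0.15 in Mock and 0.17 in TET2M, positive in every line, with a median gap of 0.145. UHRF1, which brings DNA methyltransferase 1 to replicated DNA, read 10.48 and 9.81 (TET2WT), 10.30 and 10.20 (Mock) and 10.13 and 9.89 (TET2M) (gap 0.50 ± 0.122, SE). E2F1, a transcription factor of S-phase entry, had glucose differences of 0.39, -0.10 and -0.08. POLA1, a DNA polymerase subunit, had 0.41, -0.03 and -0.16, and CDC25A, a phosphatase that activates cyclin-dependent kinases, 0.58, 0.12 and 0.26. In UHRF1, POLA1 and CDC25A the normal-glucose array of TET2WT was the lowest of that concentration, and in E2F1 it was the highest. 0 members passed the adjusted test or the 1.5-fold rule, and 3 had an unadjusted p under 0.05, all higher (5.06% of all genes in that direction). For G2/M and mitosis genes the gap was smaller: 24 of 34 lay above 0 with a median of 0.04. UBE2C, a ubiquitin-conjugating enzyme of mitotic exit, was at 0.345 and MAD2L1, a spindle checkpoint protein, at -0.315. Growth rates of the cultures were not among the data used here.

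Targets of YAP, the transcriptional coactivator of the Hippo pathway that works through TEAD factors, included 3 of the 128 genes higher beyond both lines (0.887% of all genes), CCN1, CCN2 and ANKRD1. CCN2, or connective tissue growth factor, read 7.49 and 7.07 (TET2WT), 7.38 and 7.96 (Mock) and 7.37 and 7.54 (TET2M) (gap 0.795 ± 0.237, SE). ANKRD1, a repeat protein of muscle and of wound response, read 3.35 and 2.82 (TET2WT), 3.91 and 5.13 (Mock) and 3.64 and 3.93 (TET2M) (1.285 ± 0.498). For CCN1, CCN2 and ANKRD1 the normal-glucose array of TET2WT was the lowest of that concentration, and the glucose difference was positive in TET2WT alone. AMOTL2, a feedback inhibitor of YAP, had differences of 0.59, 0.10 and 0.05. The list as a whole stood less apart: 13 of 20 tested members lay above 0 (53% of all genes), 10 lay above each other line (38.9% of all genes), and the median was 0.0775 beside 0.02 for all genes. 0 members passed the adjusted test, and 4 had an unadjusted p under 0.05, all higher (5.06% of all genes in that direction). Those 4 include CCN1 but neither CCN2 nor ANKRD1. Both genes are also listed among 30 immediate early and MAPK feedback genes, where 14 lay above 0 and 15 below, with a median of -0.0125. FOSL1 (0.635) and ATF3 (-0.72) of that list lay on opposite sides.

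The starts of CCN2 and ANKRD1 are shown because these genes had large gaps of the same sign and TEAD factors are known to bind GGAATG. Matches along the printed strand or its complement were counted. The CCN2 window lies at chr6:131951323-131951622 on the minus strand and holds 3 matches, and that of ANKRD1, at chr10:90921038-90921337 on the minus strand, holds 2, all in capitals. The window of AMOTL2 was examined too and holds 0. A match was present in 5 of 14 windows of the YAP list (35.7%) and in 11.1% of the windows of all genes tested. Among genes higher in TET2WT beyond both lines it was present in 11 of 95 windows (11.6%), close to the share of all genes. Among those lower it was present in 9 of 120 (7.5%). The YAP list was drawn up from known targets, and a CCN1 window was not examined.
CCN2: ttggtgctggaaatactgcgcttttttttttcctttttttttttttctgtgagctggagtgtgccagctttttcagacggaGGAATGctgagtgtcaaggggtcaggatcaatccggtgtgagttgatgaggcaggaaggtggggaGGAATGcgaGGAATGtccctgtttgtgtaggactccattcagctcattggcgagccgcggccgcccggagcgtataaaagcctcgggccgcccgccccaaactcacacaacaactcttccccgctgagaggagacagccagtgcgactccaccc
ANKRD1: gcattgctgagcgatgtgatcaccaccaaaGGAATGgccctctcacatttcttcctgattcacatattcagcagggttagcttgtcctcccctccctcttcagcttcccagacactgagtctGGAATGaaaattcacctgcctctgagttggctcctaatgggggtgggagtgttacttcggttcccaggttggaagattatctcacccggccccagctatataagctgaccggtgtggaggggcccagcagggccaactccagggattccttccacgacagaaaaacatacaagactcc

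The list of NF-kB and inflammatory genes had 17 of 28 tested members above 0, not far from the 53% of all genes. In 15 TET2WT lay above each other line, against 38.9% of all genes, and in 6 below each, against 32.6%. The median gap was 0.1975, with median glucose differences of -0.165 in TET2WT, -0.28 in Mock and -0.29 in TET2M. Without the low-value filter the median gap was 0.075. PTGS2, the inducible cyclooxygenase, read 3.59 and 3.22 (TET2WT), 5.09 and 5.65 (Mock) and 3.10 and 3.57 (TET2M) (gap 0.885 ± 0.109, SE). Its level in Mock was far above those of the other lines, while its glucose difference was negative in Mock and TET2M alike. IL24, a cytokine of the IL10 family first found in melanoma cells, read 7.27 and 5.79 (TET2WT), 7.10 and 6.23 (Mock) and 7.09 and 6.14 (TET2M). As with FLG and DKK1, all lines were higher at high glucose, and TET2WT was highest there and lowest at normal glucose. IL1A went the other way, with differences of -0.92, -0.28 and -0.50, and CCL5, near background, had a gap of 0.495. 0 members passed the adjusted test. With an unadjusted p under 0.05, 3 of 28 lay higher and 1 lower, against 5.06% and 4.12% of all genes.

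Matrix genes did not share a direction. Of 21 matrix crosslinking and glycoprotein genes 12 lay below 0 and 9 above, with a median of -0.055. With an unadjusted limma p under 0.05, 5 of 21 lay lower and 2 higher, against 4.12% and 5.06% of all genes. Of the 21, 3 were 1.5-fold below both lines, against 1.03% of all genes: MGP, LOXL4 and EFEMP2, a fibulin needed for elastic fibres, at 4.88 and 5.54 (TET2WT), 4.38 and 4.29 (Mock) and 4.73 and 4.38 (TET2M). ELN, elastin itself, had a gap of 0.755 near background. Among 24 integrin and laminin genes 13 lay below 0 and 10 above (median -0.0575). Beside ITGA9, gaps were -0.51 for ITGB3, which pairs with alpha V, -0.62 for ITGA1 and 0.49 for ITGB4, the partner of alpha 6. COL1A1, a chain of type I collagen, was at 0.605, whereas the 19 collagen genes had a median of 0.065. 0 members of these lists passed the adjusted test.

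In the melanocyte lineage list (13 tested, 6 above 0 and 7 below, median -0.01) S100B, a calcium-binding protein of neural crest cells, read 7.20 and 7.90 (TET2WT), 7.39 and 7.23 (Mock) and 7.53 and 7.51 (TET2M) (gap -0.79 ± 0.122, SE). TET2WT was the highest line at normal glucose and the lowest at high glucose. RAB38, which acts in melanosome transport, had differences of -0.17, 0.50 and 0.41. MLPH (0.835) and PMEL (0.59), both of melanosomes, lay on the other side at levels from 3.55 to 4.65.

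Known glucose-induced genes did not give a common picture. TXNIP, which inhibits thioredoxin and glucose uptake, read 6.40 and 4.25 (TET2WT), 5.39 and 4.16 (Mock) and 6.31 and 4.08 (TET2M). It was higher at high glucose in each line. On this probe set TET2WT (2.15) and TET2M (2.23) were alike, with Mock (1.23) apart. The TXNIP difference of differences was 0.42 ± 0.534 (SE), and the other TXNIP probe sets gave 0.385 and -0.54. The former had glucose differences of 1.58 (TET2WT), 1.22 (Mock) and 1.17 (TET2M), and the latter 0.89, 1.38 and 1.48. On these Mock and TET2M were alike and TET2WT lay apart, in opposite directions. ARRDC4, an arrestin family protein induced by the same factor, read 3.53 and 3.29 (TET2WT), 3.84 and 2.77 (Mock) and 3.36 and 2.50 (TET2M). Here TET2WT (0.24) lay below Mock (1.07) and TET2M (0.86), by -0.725 ± 0.147 (SE), with 1 array below 2.64. The 11 tested MondoA and ChREBP targets had 7 members above 0 and 4 below, with a median of 0.05. Its other leading members were MLXIPL (0.415), which encodes ChREBP, and PKLR (0.315), the pyruvate kinase of liver and red cells. GAPDH, at 13.20 to 13.34 on all arrays, had a gap of 0.025.

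Genes of DNA methylation itself had gaps on both sides of 0. Of 22 tested members 12 lay above 0 and 10 below, with a median of 0.0425. TET1 (-0.18 ± 0.177, SE, with 1 array below 2.64) and TET3 (-0.015 ± 0.147) were close to 0 on the probe sets of highest mean. The other TET3 probe sets that passed the filter gave 0.215 and 0.645, the latter 0.59 above Mock and 0.70 above TET2M. Beside UHRF1, its relative UHRF2 was at 0.34, GADD45B, a stress protein linked to demethylation, at 0.525, and SMUG1, a uracil-DNA glycosylase, at -0.23. For the 14 enzymes that make or use 2-oxoglutarate, the co-substrate of TET2, 5 lay above 0 and 9 below, with a median of -0.08. Of all genes tested, 46.1% lay below 0. The median of these enzymes was -0.075 against Mock alone and -0.005 against TET2M alone. With the mean of a gene's probe sets it turned to 0.0192. IDH1, which makes it, was at -0.22. D2HGDH, which converts 2-hydroxyglutarate to it, was at 0.355. Of 13 genes of AMPK and its upstream kinases 4 lay above 0 and 8 below (median -0.08). Their median was -0.15 against Mock alone and 0 against TET2M alone. The catalytic subunit PRKAA1 had glucose differences of -0.26, 0.15 and 0.04 and PRKAA2, at low levels from 2.96 to 3.86, of -0.28, 0.37 and 0. 0 members of these 3 lists passed the adjusted test.

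In lipid synthesis, the lines were alike in that most genes were lower at high glucose. Cholesterol biosynthesis genes had median glucose differences of -0.19 in TET2WT, -0.30 in Mock and -0.29 in TET2M, and 10 of 19 had a gap above 0. The median gap was 0.035, but 0.10 against Mock alone and -0.10 against TET2M alone. INSIG1, the sterol-regulated brake on SREBP processing, had -1.41, -1.10 and -1.04. LSS, lanosterol synthase, had 0.08, -0.53 and -0.33, and TM7SF2, a sterol reductase, 0.03, -0.30 and -0.41. Among 16 fatty acid synthesis genes (median -0.015) SREBF1, the transcription factor of the pathway, was at -0.50 and GPAM, which starts glycerolipid synthesis, at -0.56, while ACACB was at 0.58 and SCD5, with 3 arrays below 2.64, at 0.82.

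FLG is a keratinocyte gene, and markers of other cell types were therefore examined. Of 9 keratinocyte markers, 6 had a mean above 2.64, of which KRT10 was the highest (9.34). The involucrin gene IVL, LORICRIN and CDH1 lay below it. The median over these markers was 3.18 and 2.73 (TET2WT), 2.81 and 3.02 (Mock) and 3.07 and 2.76 (TET2M) at high and normal glucose. Of the 10 tested genes of the wider keratinocyte list 8 had a gap above 0, with a median of 0.245 that was 0.345 against Mock and 0.075 against TET2M. Apart from FLG its leading members were near background: KLK5 (0.40), DSG3 (0.38) and DSC3 (-0.38). The fibroblast list (8 tested, 7 above 0, median 0.175) and the blood list (5 tested, all above 0, median 0.33) were mostly measured at low levels too, and among the genes of lowest level the median was 0.11. PTPRC, which marks blood cells, had a mean of 2.08. The part of other cell types or of signal near background in these values was not tested.

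**Figure D5:**
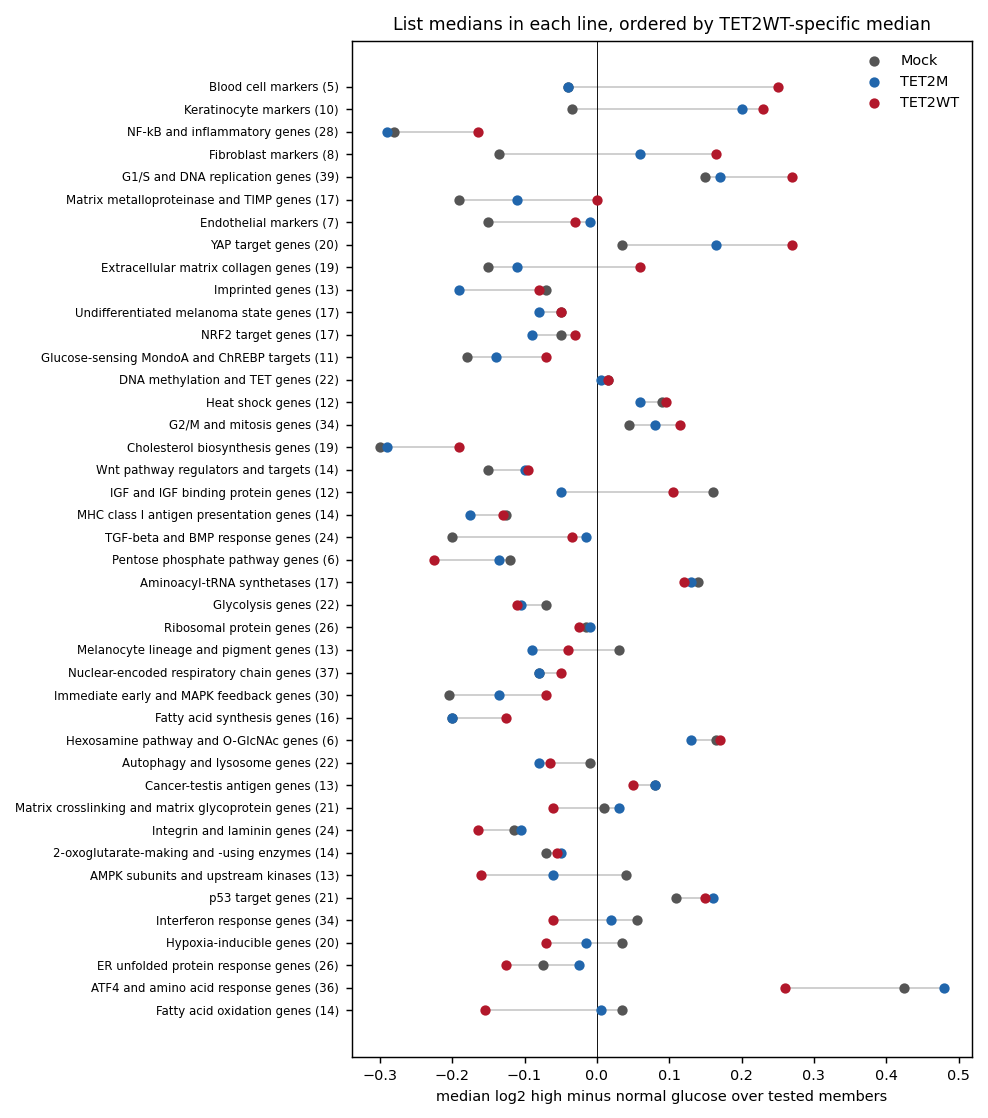
Median glucose difference (log2, high minus normal) of each gene list in TET2WT (red), Mock (grey) and TET2M (blue), with the number of genes tested in parentheses and lists ordered by the median difference of differences. TET2WT lies left of both lines for ATF4 genes (0.26 against 0.425 and 0.48) and fatty acid oxidation (-0.155 against 0.035 and 0.005) and right of them for G1/S genes (0.27 against 0.15 and 0.17).

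In all, 42 lists with 916 genes were described, of which 762 genes were tested and 0 passed the adjusted test. The median gap lay within 0.1 of 0 in 32 lists. Among them were 26 ribosomal protein genes (-0.005), 37 nuclear-encoded genes of the respiratory chain (-0.01), 22 glycolysis genes (-0.0025), 17 aminoacyl-tRNA synthetases (0.005) and 6 pentose phosphate pathway genes (0.01). In glycolysis the leading members were ALDOC (-0.245), ENO2 (0.21), PGK1 (-0.20) and SLC2A3 (-0.20), none of them 1.5-fold beyond both lines. The heat shock genes (12 tested, median 0.04) included HSPA4L at -0.45, with TET2WT at 4.48 and 4.43 and the other lines higher at high glucose by 0.52 and 0.48. For p53 targets (21 tested, 13 below 0, median -0.085) MDM2, the ubiquitin ligase of p53, had glucose differences of 0.04, 0.43 and 0.40.

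Gene starts were compared for CG content. Of 14428 genes tested, 11514 had a window in the RefSeq table. The median number of CGs per window was 25 for all of them (quartiles 15 and 34), 19 for 95 genes higher beyond both lines (6 and 31) and 24.5 for 120 genes lower (15.75 and 33). The higher genes were also those of lower level, and the part of level in this difference was not tested. By chromosome, the share of genes beyond both lines ran from 0.783% on chromosome 22 to 4.00% on chromosome 18, where it stood for 8 of 200 genes, leaving out the Y and mitochondrial chromosomes with under 10 genes each.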

How the data were processed

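RNA of 6 cultures was measured on 6 arrays. The authors deposited log2 values per probe set. Affymetrix Expression Console was the software, according to the submitters' processing notes. Neither its version nor how probes were summarised is given in the sources used here. That the logarithm has base 2 follows from the range of values. The sorted columns differed by at most 0.12, so the arrays already shared nearly 1 distribution, and no further normalization was applied. Depth has no meaning for arrays: their number limits the precision.

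Of 54675 probe sets, 41091 named 1 gene in the platform annotation and were not controls. Several genes were named by 1801 and none by 11777. Of the 62 control probe sets, those that name 1 gene were left out, and the others are among the 1801 and 11777. For 41037 of the 41091 the gene ID was found in RefSeq's list of genes and the symbol given there was used, whether or not it differed. For the other 54 the symbol of the annotation was kept. Probe sets with a mean below 2.64, the 40th percentile, were left out, and each of the 14428 genes was represented by its probe set of highest mean. The model had terms for line, glucose and glucose in TET2WT (limma 3.58.1 in R 4.3.3, lmFit and eBayes, two-sided, Benjamini-Hochberg over 14428 genes, threshold 0.05), with the package data.table (1.17.8), and was tested on simulated data. Python 3.11.15 with pandas 2.3.3 and matplotlib 3.10.9 read the promoter windows and drew the figures.

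The comparison, the 42 gene lists and the rules were chosen with earlier results of these data known. Named are the 10 genes with the largest gaps to both lines in each direction, up to 5 a direction among genes 1.5-fold the same way in Mock and TET2M, those opposite in TET2WT, up to 4 members of each list described, and the TET genes, TXNIP, ARRDC4 and GAPDH. Placeholder and antisense names were passed over. Nothing says how far the 6 cultures were independent.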

Additional observations from a re-analysis of the deposited data

Results flagged for a closer look

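ZNF668 stood out because its glucose difference ran 1 way in TET2WT (-0.79) and the other way in both Mock (0.72) and TET2M (0.72), a difference of differences of -1.51. With 1 array per combination this rests on 6 values from 3.11 to 4.16, it did not pass limma's adjusted test (adjusted p 0.531), and a second probe set of the gene gave 0.195. No combination had more than 1 array, so arrays far from others of their group could not be looked for.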

How the results depend on the processing

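The count of genes past limma's adjusted test stayed at 0 for the TET2WT-specific response under 9 alternatives (no filter, a filter at the 60th percentile, the mean of a gene's probe sets, every probe set on its own with and without the filter, quantile and cyclic loess normalization, an intensity trend and robust eBayes), with the smallest adjusted p from 0.380 to 0.638 and between 1037 and 2949 features with an unadjusted p under 0.05. It also stayed at 0 for Mock and TET2M under 3 alternatives each. The 277 genes 1.5-fold beyond both lines (128 higher, 149 lower) became 173 (59 and 114) with the filter at the 60th percentile, 593 (215 and 378) over every filtered probe set, 670 (276 and 394) over every probe set without the filter, 13 (6 and 7) at 2-fold, 842 (426 and 416) against Mock only and 706 against TET2M only (355 of them higher). Counts within 1.5 times were 310 (158 and 152) without the filter, 190 (98 and 92) with the mean of probe sets, 266 (124 and 142) after quantile and 263 (103 and 160) after cyclic loess normalization. Shared with the 277 were 277, 173, 175, 227 and 234 genes without the filter, at the 60th percentile, with the mean of probe sets, and after quantile and loess normalization. The median gap of all features lay between -0.005 and 0.04. Of 31 named genes the sign turned in 1 or 2 under each alternative, in TET2, TET3, TXNIP or GAPDH. With the mean of probe sets several gaps shrank by over 1.5 times: MTHFD2L from -1.17 to -0.037, ITGA9 from -1.34 to -0.375, ZNF668 from -1.51 to -0.657, TESC from -1.095 to -0.502, RAB30 from -0.95 to -0.633, CD209 from 1.135 to 0.447, ZNF606 from 1.23 to 0.55, RTEL1 from 1.285 to 0.685 and TXNIP from 0.42 to 0.088, while TET3 went from -0.015 to 0.282. Of 42 list medians it turned in 4 without the filter, 6 after quantile normalization, 9 with the mean of probe sets and 8 against either line alone. The medians of ATF4 (-0.185 to -0.105), fatty acid oxidation (-0.205 to -0.17) and G1/S genes (0.10 to 0.18) kept their sign. With 1 array per combination there were no replicates to pair. High and normal glucose were compared within each line, and the line was a term of the model. Leaving out an array leaves no residual degrees of freedom, so the values against each line alone take its place, without a test.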
